A study of Cricetulus griseus with 6 samples.

Results

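The coat proteins, small GTPases, cargo receptors and tethers that carry proteins between the endoplasmic reticulum (ER) and the Golgi were followed as a list of 45 genes, chosen by gene symbol from their roles in COPI and COPII vesicle transport. All 45 had a row among the 27873 rows of the files, and 44 of them were among the 14361 rows tested, which had a mean of at least 0.1 FPKM (sequenced fragments per kilobase of transcript, relative to all mapped fragments of a library). *Copz2*, a zeta subunit of the COPI coat, was listed at 0 in the 3 control libraries and at 0.138, 0 and 0.122 FPKM with *Xbp1* siRNA and was not tested.

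The cells were CHO-T cells, a Chinese hamster ovary line made to express *Cdh13* (T-cadherin) stably with a retrovirus, so the transgene was carried by both groups. They received either a negative control siRNA, in 3 libraries, or an siRNA to *Xbp1*, in another 3, and were harvested after 2 days. Stranded mRNA libraries were sequenced. The paper's aim was to find the pathway through which activated IRE1α, an ER stress sensor, limits the production of extracellular vesicles. XBP1 is a transcription factor of the unfolded protein response, and the paper used its silencing to activate IRE1α. The labels do not say that the 3 libraries of a group came from separate cultures, so the p-values measure the spread between these libraries.

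COPII vesicles leave the ER at exit sites. The GTPase Sar1, loaded with GTP by Preb (Sec12), recruits an inner coat of Sec23 and Sec24, where Sec24 binds cargo, and then an outer coat of Sec13 and Sec31. COPI vesicles carry escaped ER proteins and receptors back from the Golgi and the ER-Golgi intermediate compartment (ERGIC), and their heptameric coat, coatomer, is recruited by ARF GTPases. In secretory cells, spliced XBP1 is known to drive many genes of the secretory pathway, coat genes among them.

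The silenced gene was examined first. *Xbp1* had 25.96, 26.2 and 28.4 FPKM with control siRNA and 2.18, 2.11 and 1.39 FPKM with *Xbp1* siRNA, which left 7.05% of the control mean, with no overlap between the groups. In limma the log2 fold change was −3.78 (SE 0.16, adjusted p = 5.61e-06), where SE is the standard error. The libraries summed to between 646651 and 666267 FPKM with control siRNA and between 593487 and 600986 FPKM with *Xbp1* siRNA, and the depth of the libraries, read from the steps of low values, lay between 94.0% and 116% of that of control replicate 1. The read totals themselves are not given by FPKM files. Of 26 cell type markers, 22 had a row and 9 of these were listed at 0 in every library, among them the gonadal receptors *Fshr* and *Lhcgr*, the keratins *Krt18* and *Krt19*, the fibroblast genes *Col1a1*, *Col1a2* and *Thy1* and the blood cell genes *Ptprc* and *Cd3e*. The labels give ovary as the tissue. Of the ovarian markers, *Fshr* and *Lhcgr* were at 0, *Nr5a1* reached at most 0.103 FPKM, and *Amh*, *Inha* and *Star* lay between 0.743 and 4.10 FPKM. The 7 mesenchymal markers summed to between 686 and 726 FPKM with control siRNA and between 525 and 557 FPKM with *Xbp1* siRNA, against at most 8.80 FPKM for the list of ovarian, of epithelial or of blood cell markers. Nearly all of this sum came from *Vim* and *Sparc*, with control means of 377 and 316 FPKM. *Col1a1*, *Col1a2* and *Thy1*, at 0, belong to the same list, and *Col3a1* had a control mean of 3.96 FPKM. Of the markers, 3 fell and 4 rose. The mesenchymal genes *Vim*, *Sparc* and *Col3a1* fell to 80.6%, 66.3% and 33.7% of control. *Fn1*, of the same list, rose to 179%, from 13.1 to 23.3 FPKM. The epithelial genes *Epcam* (1.82 to 4.72 FPKM) and *Cdh1* (0.131 to 0.434 FPKM) rose to 259% and 330%, and the blood cell gene *Cd68* rose to 139%. The part of these markers in the results was not tested. A change in the make-up of the cell population and a change in RNA per cell cannot be told apart in bulk libraries.

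After *Xbp1* silencing the transport genes moved in both directions, mostly by little. Of the 44 tested, 12 rose and 9 fell at an adjusted p under 0.05 (limma on log2(FPKM + 0.1), Benjamini-Hochberg over all rows tested), and 23 did not pass. The largest changes lay in the ERGIC genes and in a gamma coat subunit and a KDEL receptor. *Ergic2* fell to 35.9% of its control mean, whereas *Ergic1* rose to 169%, *Copg2* to 148% and *Kdelr3* to 144%. Fold changes on this scale understate the change of weakly expressed genes, although the members' control means, from 7.89 to 306 FPKM, were far above the pseudocount.

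Counts over all genes were used as the background. Of all rows tested, 20.2% rose and 20.2% fell, against 27.3% and 20.5% of the members. Among the 8105 rows expressed at least as highly as the weakest member, 24.3% rose and 29.4% fell. A log2 fold change of at least 1 in size together with an adjusted p under 0.05, the limits of the study's methods, was reached by 2.69% of all rows in the higher direction and 2.5% in the lower. Of the members, 0 reached them in the higher direction and 1, *Ergic2*, in the lower. The 2 groups of libraries did not overlap for 20 members that were higher and 13 that were lower with *Xbp1* siRNA, where 26.1% and 25.8% of all rows did so. The median log2 fold change of the members was 0.06, beside 0.01 over all rows. The median size of the log2 fold change was 0.18, beside 0.27 over all rows and 0.21 among the 8105 rows. These 8105 rows share only a lower bound with the members, whose median control mean was 51.6 FPKM, and were not matched to them in level. Of the 21 members that passed, 17 changed by less than 0.5 on the log2 scale and the smallest change was 0.14.

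The scaling of the libraries bears on these counts. With median-ratio scaling, which was planned, 12 members rose, their median log2 fold change was 0.06 and their summed FPKM was 101% of control. With quantile normalization, also planned, 16 members rose and the median was 0.11. When every library was scaled to the same summed FPKM, an alternative added after the data were seen, the median log2 fold change of all rows moved to 0.14, and 28 members rose and 8 fell in place of 12 and 9 (63.6% and 18.2% of the 44). Under this scaling 31.7% of all rows rose and 13% fell, and among the 8105 rows at or above the weakest member 40.5% rose and 18.4% fell. The members' median moved with it, to 0.19. The counts of each role group under this scaling are given beside those of the deposited values. Each is to be read against 20.2% risen and 20.2% fallen of all rows as deposited, and 31.7% and 13% under this scaling. The groups hold few genes and were not tested as sets. Of the 9 members that fell, 8 were lower at an adjusted p under 0.05 under every alternative, and *Sec13* was not under this scaling.

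**Figure D1:**
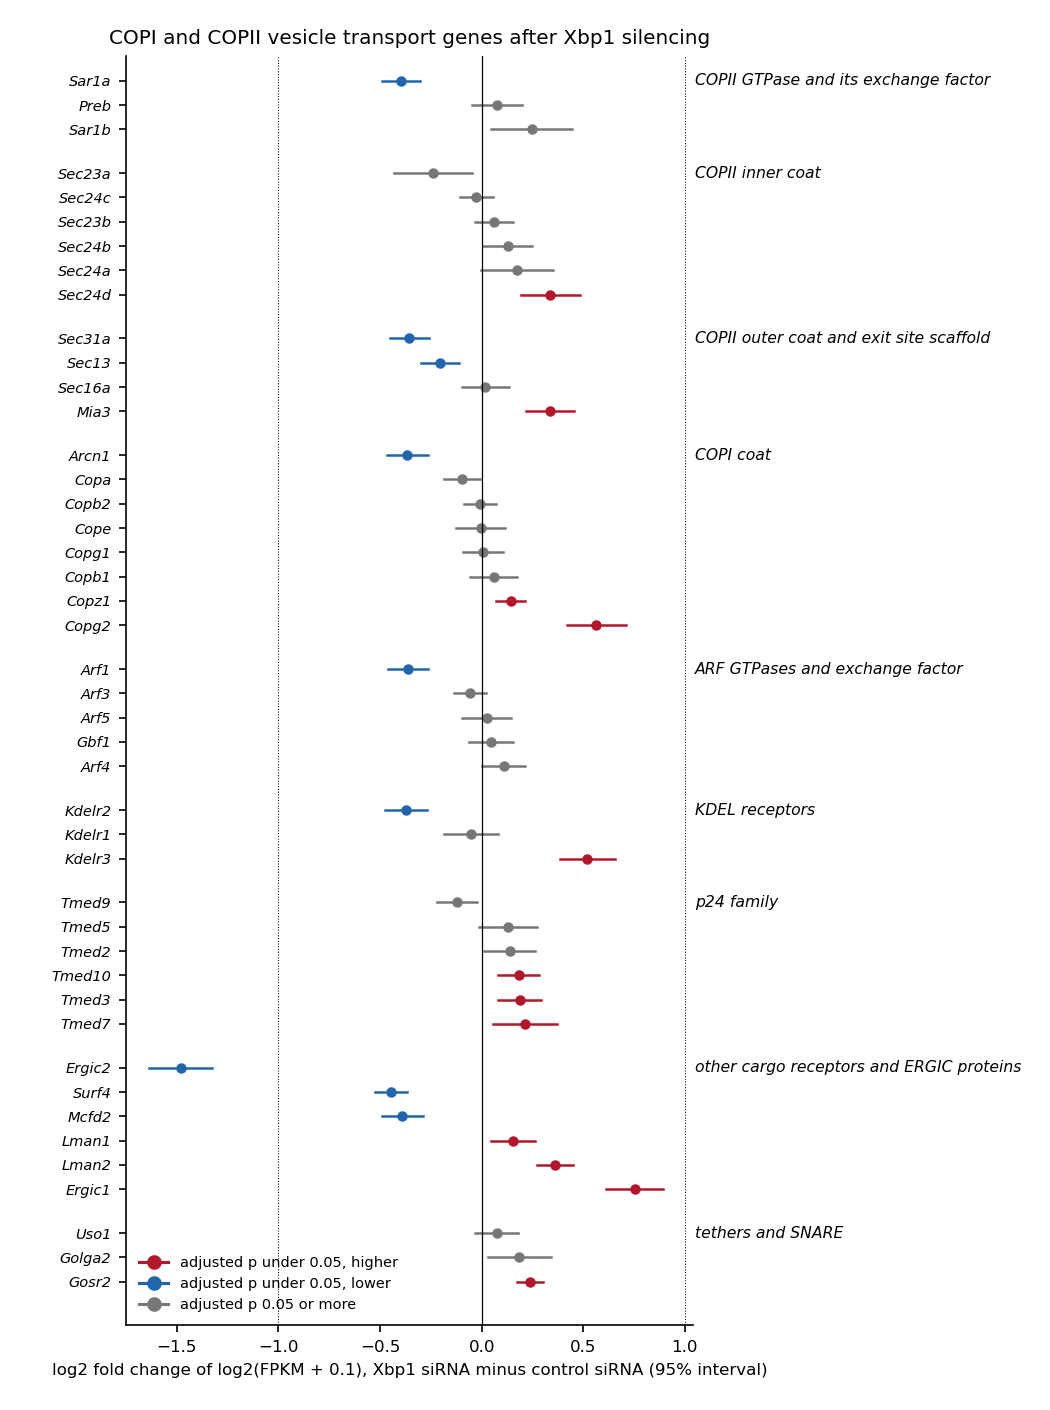
Log2 fold changes on the log2(FPKM + 0.1) scale of the 44 transport genes tested (points, *Xbp1* siRNA minus control siRNA, 3 libraries each) with their 95% intervals (lines), grouped by role and coloured by direction for the 21 genes with an adjusted p under 0.05. *Ergic2*, at −1.48, is the only member beyond a log2 fold change of 1 in size (dotted lines), and every group other than the tethers holds points on both sides of 0.

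The GTPase step of COPII held 1 gene that fell and 2 that did not pass, while at equal summed FPKM these 2 rose. *Sar1a*, 1 of the 2 Sar1 paralogues, had 47.5, 48.6 and 45.8 FPKM with control siRNA and 36.3, 35.6 and 35.7 FPKM with *Xbp1* siRNA, which gave a log2 fold change of −0.40 (SE 0.04, adjusted p = 2.11e-04). All 3 libraries with *Xbp1* siRNA lay below all 3 controls. Its paralogue *Sar1b* had 16.9, 20.2 and 18.4 FPKM with control siRNA and 20.3, 23.8 and 21.8 FPKM with *Xbp1* siRNA. The silenced libraries were above the controls, the lowest of them only narrowly, and the log2 fold change of 0.25 (SE 0.09, adjusted p = 0.0526) did not pass. *Preb*, the exchange factor of Sar1, did not pass either, with 24.2 ± 1.08 and 25.5 ± 0.786 FPKM (SD, n = 3) and a log2 fold change of 0.08 (95% interval −0.05 to 0.20). *Sar1a* made up 73.8, 70.7 and 71.4% of the summed FPKM of the Sar1 genes in the control libraries, and 64.2, 60.01 and 62.2% in the silenced ones. The shares did not overlap. The sum over both paralogues was 65.8 FPKM with control siRNA and 57.8 FPKM with *Xbp1* siRNA, or 87.9% of control, and 96.5% at equal summed FPKM.

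Shares such as these were compared with an exact two-sided permutation test over the libraries, for which 0.10 is the smallest p that 3 libraries against 3 allow. In the 7 families of paralogues, 19 shares and 7 sums were tested, and the lowest p adjusted over the 26 tests was 0.144, so that none could pass. Reads that fit more than 1 paralogue could be split in ways that the sources used here do not describe.

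The inner coat of COPII held 1 gene that rose and 5 that did not pass (4 and 2 at equal summed FPKM). *Sec24d*, a cargo-binding Sec24 paralogue, had 15.1, 16.998 and 15.3 FPKM with control siRNA and 19.5, 20.4 and 20.01 FPKM with *Xbp1* siRNA. The lowest silenced library was above the highest control, and the log2 fold change was 0.34 (SE 0.06, adjusted p = 0.00405). *Sec24a* had 7.54, 8.001 and 8.12 FPKM with control siRNA and 8.44, 9.47 and 8.83 FPKM with *Xbp1* siRNA, with a log2 fold change of 0.17 (adjusted p = 0.111). *Sec24b* had 19.4, 19.7 and 18.5 FPKM with control siRNA and 21.8, 20.7 and 20.5 FPKM with *Xbp1* siRNA, with a log2 fold change of 0.13 (adjusted p = 0.0854). In both genes the groups did not overlap, with the silenced libraries higher, but neither passed. *Sec24c*, the most abundant paralogue, had 66.2, 67.5 and 68.4 FPKM with control siRNA and 67.6, 65.6 and 65.3 FPKM with *Xbp1* siRNA. Its groups overlapped, and the 95% interval of the log2 fold change was −0.11 to 0.05. The share of *Sec24c* in the Sec24 sum was 61.1% ± 0.883 (SD, n = 3) with control siRNA and 57.02% ± 0.585 with *Xbp1* siRNA, and that of *Sec24d* was 14.3% ± 0.715 and 17.2% ± 0.508. Neither share overlapped between the groups (exact permutation p = 0.1 for each).

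Sec23 is the GTPase-activating partner of Sec24 in the inner coat. *Sec23a* had 9.65, 10.9 and 11.4 FPKM with control siRNA and 8.71, 8.98 and 9.26 FPKM with *Xbp1* siRNA. All silenced libraries were below the controls, yet the log2 fold change of −0.24 (SE 0.08, adjusted p = 0.0503) missed the threshold. *Sec23b* had 35.8, 35.5 and 36.2 FPKM with control siRNA and 37.05, 38.6 and 36.5 FPKM with *Xbp1* siRNA, with a log2 fold change of 0.06 (95% interval −0.03 to 0.15). Its silenced libraries were above the controls by a small step. The Sec23 sum was 46.5 FPKM with control siRNA and 46.4 FPKM with *Xbp1* siRNA (exact permutation p = 0.9), with *Sec23a* taking 22.9% ± 1.47 and 19.4% ± 0.738 of it (SD, n = 3).

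In the group of the outer COPII cage and the exit site scaffold, 1 gene rose and 2 fell, against 2 and 1 at equal summed FPKM. Of the cage, the members *Sec31a* and *Sec13* fell. *Sec31b*, a weakly expressed paralogue of *Sec31a* on the wider list, had 0.898 ± 0.174 and 0.667 ± 0.0503 FPKM (SD, n = 3) and did not pass, with a log2 fold change of −0.37 (adjusted p = 0.234). *Sec31a* had 53.6, 53.1 and 50.7 FPKM with control siRNA and 40.1, 40.6 and 42.2 FPKM with *Xbp1* siRNA, and the log2 fold change was −0.36 (SE 0.04, adjusted p = 4.40e-04). *Sec13*, which is shared with the nuclear pore, had 88.6, 87.2 and 90.4 FPKM with control siRNA and 80.6, 75.4 and 74.95 FPKM with *Xbp1* siRNA, which gave a log2 fold change of −0.21 (SE 0.04, adjusted p = 0.00534). The groups overlapped for neither *Sec31a* nor *Sec13*, but *Sec13* was at −0.07 (adjusted p = 0.227) when the libraries were scaled to equal summed FPKM. *Mia3* (TANGO1), which holds large cargo such as procollagen at exit sites, went the other way. It had 30.2, 30.98 and 28.5 FPKM with control siRNA and 39.1, 38.05 and 36.2 FPKM with *Xbp1* siRNA, and the log2 fold change was 0.34 (SE 0.05, adjusted p = 0.00154). Every silenced library was above every control. The exit site scaffold *Sec16a* had 18.5 ± 0.481 FPKM with control siRNA and 18.7 ± 0.367 FPKM with *Xbp1* siRNA (SD, n = 3), and the 95% interval of its log2 fold change was −0.10 to 0.13.

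**Figure D2:**
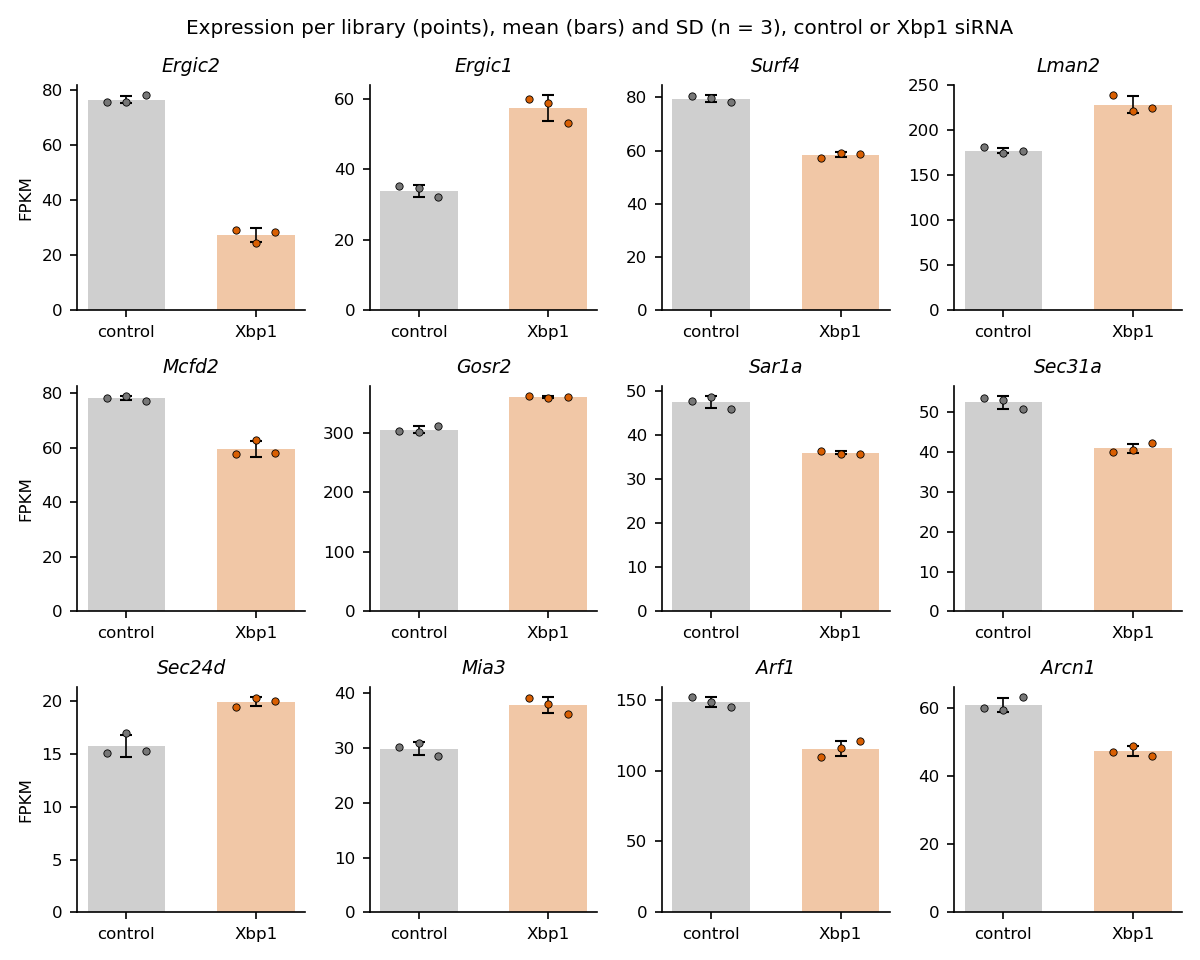
FPKM of 12 transport genes in each library (points), with the mean (bars, from 0) and SD (lines) of the 3 control and 3 *Xbp1* siRNA libraries. In each of the 12 panels the points of the 2 groups do not overlap, and the gap is widest, relative to the control mean, for *Ergic2*, where the control libraries lie at 75.7 FPKM or above and the silenced libraries at 29.05 FPKM or below.

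In the COPI coat, 2 of the 8 subunit genes tested rose, 1 fell and 5 did not pass. At equal summed FPKM 5 rose, 1 fell and 2 did not pass. *Copg2*, the less abundant of the 2 gamma subunits, had 14.97, 16.5 and 16.6 FPKM with control siRNA and 24.8, 23.5 and 22.9 FPKM with *Xbp1* siRNA, which gave a log2 fold change of 0.56 (SE 0.06, adjusted p = 3.23e-04). Its lowest silenced library was well above the highest control. The major gamma subunit *Copg1* had 54.7, 58.5 and 57.6 FPKM with control siRNA and 58.8, 57.02 and 55.5 FPKM with *Xbp1* siRNA. These values overlapped, and the 95% interval of the log2 fold change was −0.09 to 0.10. The share of *Copg2* among gamma subunit transcripts was 21.5, 21.99 and 22.4% in the control libraries and 29.6, 29.2 and 29.2% in the silenced ones (exact permutation p = 0.1). The 6 shares were tight within each group and apart between them. Together the gamma genes had 72.96 FPKM with control siRNA and 80.9 FPKM with *Xbp1* siRNA, 111% of control.

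The zeta subunit *Copz1*, which pairs with gamma, had 109, 110.4 and 109.7 FPKM with control siRNA and 119, 124 and 121 FPKM with *Xbp1* siRNA, and the log2 fold change was 0.14 (SE 0.03, adjusted p = 0.00812). The controls lay close together and below all silenced libraries. *Arcn1*, the delta subunit, had 60.2, 59.5 and 63.3 FPKM with control siRNA and 47.1, 48.9 and 46.03 FPKM with *Xbp1* siRNA, which gave a log2 fold change of −0.36 (SE 0.04, adjusted p = 4.50e-04), again with no overlap. Among the members that did not pass, *Copa* (alpha) had 47.6 ± 0.46 and 44.5 ± 1.26 FPKM (SD, n = 3), with a log2 fold change of −0.10 (adjusted p = 0.0821), and its groups did not overlap. *Copb1* (beta), *Copb2* (beta prime) and *Cope* (epsilon) had log2 fold changes of 0.06, −0.01 and −0.0050, with 95% intervals of −0.06 to 0.17, −0.09 to 0.07 and −0.12 to 0.11, and overlapped between the groups. The signs of *Copb2* and *Cope* turned under some alternatives, as did those of *Copa* and *Copg1*. Per length, the control means of the subunits ran from 43.7 ± 2.49 FPKM for *Copb1* to 109.7 ± 0.651 FPKM for *Copz1* (SD, n = 3), when the 2 gamma genes are added together.

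ARF GTPases recruit coatomer to membranes once Gbf1 has loaded them with GTP. Of the 4 ARF genes and *Gbf1*, 0 rose and 1 fell, against 3 and 1 at equal summed FPKM. *Arf1*, the most abundant of the 4 ARF genes with control siRNA, had 151, 149 and 145 FPKM with control siRNA and 109.8, 116 and 120.5 FPKM with *Xbp1* siRNA, and the log2 fold change was −0.36 (SE 0.04, adjusted p = 4.26e-04). The highest silenced library was well below the lowest control. *Arf4*, which can act with *Arf1* in this step, had 103, 110.2 and 112 FPKM with control siRNA and 114, 122 and 115 FPKM with *Xbp1* siRNA, and its groups were apart by a narrow gap. Its log2 fold change of 0.11 did not pass (adjusted p = 0.0939). *Arf3* had 79.9, 79.3 and 76.8 FPKM with control siRNA and 74.9, 75.3 and 76.6 FPKM with *Xbp1* siRNA. *Arf5* had 73.8, 70.2 and 66.5 FPKM with control siRNA and 74.8, 68.5 and 70.9 FPKM with *Xbp1* siRNA. *Arf3* was narrowly lower in every silenced library and *Arf5* overlapped, with log2 fold changes of −0.06 (adjusted p = 0.218) and 0.03 (adjusted p = 0.732). *Gbf1* had 32.3 ± 0.0307 and 33.3 ± 1.44 FPKM (SD, n = 3), with a 95% interval of −0.06 to 0.15 for the log2 fold change.

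*Arf1* led the ARF genes in every control library, whereas *Arf1* and *Arf4* lay side by side after silencing. *Arf1* took 36.6% ± 0.479 of the ARF sum with control siRNA and 30.4% ± 1.03 with *Xbp1* siRNA (SD, n = 3), and *Arf4* took 26.8% ± 1.39 and 30.9% ± 1.02. Their levels in the silenced libraries, 115 ± 5.35 and 117 ± 4.47 FPKM, were within each other's spread. The share of *Arf3* was 19.4% ± 0.196 and 19.9% ± 0.184, and that of *Arf5*, which overlapped, was 17.3% ± 0.735 and 18.8% ± 1.08. The ARF sum was 406 FPKM with control siRNA and 379.5 FPKM with *Xbp1* siRNA, 93.5% of control, a direction that turned to 103% at equal summed FPKM.

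KDEL receptors bind soluble ER proteins that have escaped to the Golgi and return them in COPI vesicles. The summed level of the 3 genes differed between the groups by less than the replicate spread, while 2 of its parts moved in opposite directions. *Kdelr2* had 58.3, 61.4 and 63.8 FPKM with control siRNA and 48.05, 46.6 and 46.98 FPKM with *Xbp1* siRNA, which gave a log2 fold change of −0.37 (SE 0.04, adjusted p = 4.61e-04). *Kdelr3* had 35.97, 33.3 and 36.2 FPKM with control siRNA and 48.5, 54.2 and 48.8 FPKM with *Xbp1* siRNA, and the log2 fold change was 0.52 (SE 0.06, adjusted p = 3.83e-04). In neither gene did the groups overlap, and at equal summed FPKM 1 receptor gene still rose and 1 fell. *Kdelr1* had 34.98, 32.3 and 32.3 FPKM with control siRNA and 33.6, 32.1 and 30.2 FPKM with *Xbp1* siRNA, which overlapped, with a 95% interval of −0.19 to 0.08 for the log2 fold change. *Kdelr2* was the highest of the 3 in every control library, and *Kdelr3* was slightly above it in every silenced library, with means of 50.5 ± 3.23 and 47.2 ± 0.748 FPKM (SD, n = 3).

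The sum of the KDEL receptor genes was 129.5 ± 2.64 FPKM in the control libraries and 129.7 ± 3.46 FPKM in the silenced ones (SD, n = 3, exact permutation p = 1), or 100.2% of control as deposited and 110.0% at equal summed FPKM. *Kdelr3* took 27.8, 26.3 and 27.3% of it in the control libraries and 37.3, 40.8 and 38.7% after silencing, whereas *Kdelr2* took 45.1, 48.3 and 48.2% and 36.9, 35.1 and 37.3%. These were the widest shifts of any paralogue share, and shares do not depend on the scaling of a library to its sum. In the RefSeq gene table for the hamster assembly CriGri-PICRH-1.0, *Ddx17* is the neighbour of *Kdelr3* and the spans of the 2 genes overlap. *Ddx17* fell from 75.02 ± 1.35 to 49.4 ± 3.19 FPKM (SD, n = 3), in the direction opposite to *Kdelr3*, and whether the spans overlap in the annotation behind the FPKM, or the counting used strand, is not given in the sources used here.

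**Figure D3:**
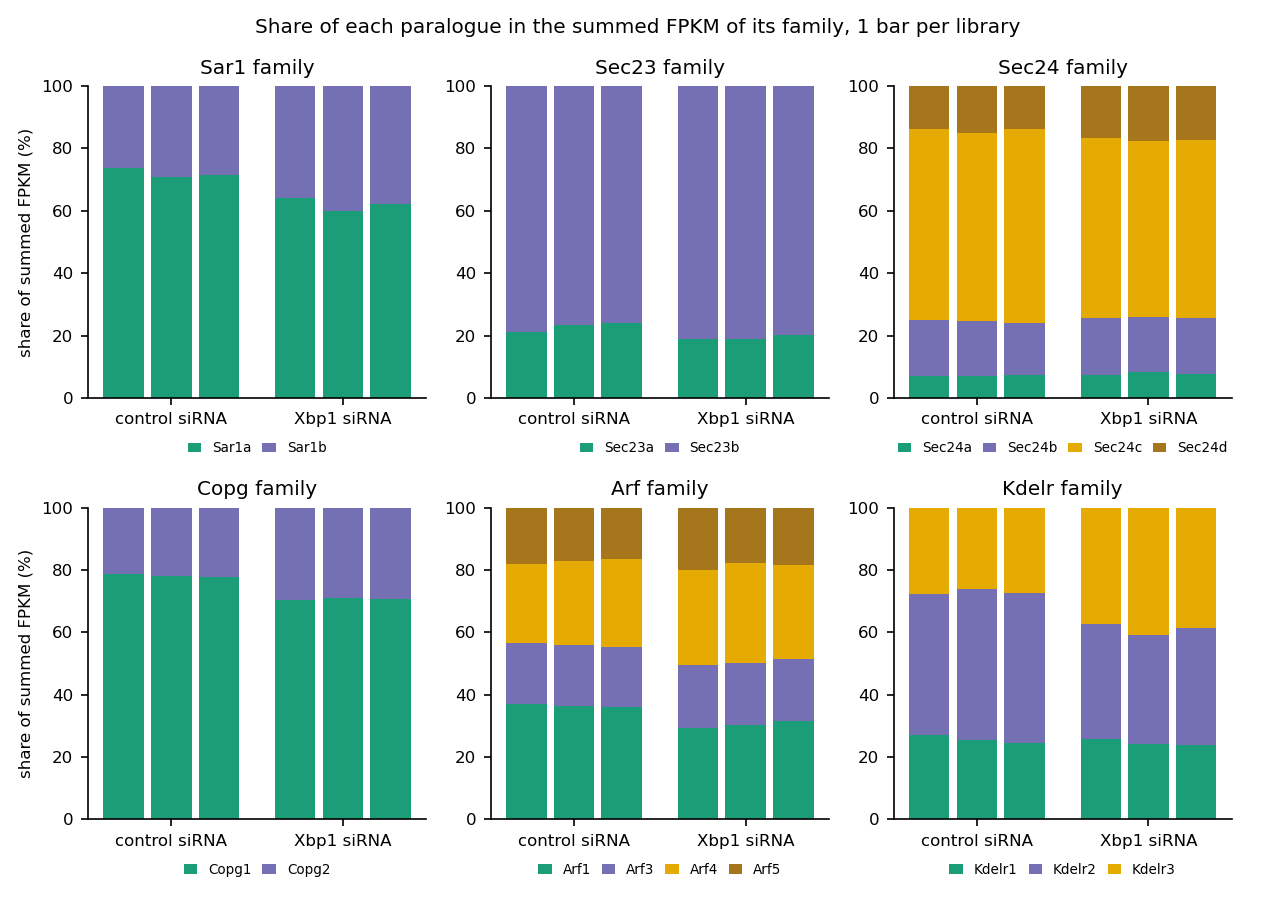
Share of each paralogue in the summed FPKM of its family (%), with 1 stacked bar for each of the 3 control and 3 *Xbp1* siRNA libraries. The share of *Kdelr3* is between 26.3% and 27.8% in the control libraries and between 37.3% and 40.8% in the silenced ones, the mean share of *Copg2* is 21.9% and 29.3% in the 2 groups, and that of *Sar1a* is 72.0% and 62.1%.

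Among the 6 p24 genes of the list, whose proteins cycle in COPI and COPII vesicles and select GPI-anchored cargo, 3 rose and 0 fell (5 and 0 at equal summed FPKM). Of all rows, 20.2% rose and 20.2% fell, and at equal summed FPKM 31.7% and 13% did so. The 4 p24 genes outside the list summed to 70.1% of control, and of these *Tmed4* fell to 52.0%. *Tmed1*, *Tmed6* and *Tmed8* did not pass, with log2 fold changes of −0.14, −0.05 and −0.09. The summed FPKM was 105% of control for the 6 members and 97.1% for all 10 p24 genes (107% at equal summed FPKM). *Tmed10*, a core p24 subunit, had 84.01, 87.2 and 92.5 FPKM with control siRNA and 99.2, 102 and 97.8 FPKM with *Xbp1* siRNA, which gave a log2 fold change of 0.18 (SE 0.04, adjusted p = 0.0125). *Tmed3* had 51.6, 51.4 and 49.1 FPKM with control siRNA and 58.9, 59.2 and 54.97 FPKM with *Xbp1* siRNA, and the log2 fold change was 0.19 (SE 0.04, adjusted p = 0.0125). For both genes every silenced library was above every control, by a few FPKM. *Tmed7* also rose, from 24.04 ± 1.996 to 27.8 ± 0.973 FPKM (SD, n = 3, adjusted p = 0.0398), a call that 6 of the 15 alternatives did not keep. *Tmed2* and *Tmed5* did not pass, with log2 fold changes of 0.14 (adjusted p = 0.0757) and 0.13 (adjusted p = 0.126). *Tmed9*, the most abundant of the 6 with control siRNA, had 181 ± 6.28 and 166 ± 6.91 FPKM, and its log2 fold change of −0.12 did not pass (adjusted p = 0.0562) and lost its sign under quantile normalization and at equal summed FPKM.

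In the group of other cargo receptors and ERGIC proteins all 6 members passed, with 3 that rose and 3 that fell, as deposited and at equal summed FPKM. Over all rows 20.2% rose and 20.2% fell as deposited, and 31.7% and 13% at equal summed FPKM. *Ergic2* and *Ergic1* encode membrane proteins that cycle between the ER and the Golgi through the intermediate compartment. *Ergic2* had 75.8, 75.7 and 78.2 FPKM with control siRNA and 29.05, 24.6 and 28.7 FPKM with *Xbp1* siRNA. Even the highest silenced library was far below the lowest control. The log2 fold change was −1.48 (SE 0.07, adjusted p = 6.04e-06) and lay between −1.52 and −1.35 under the alternatives. Of the 14361 rows tested, 204 had a lower log2 fold change. *Ergic1* had 35.3, 34.6 and 32.1 FPKM with control siRNA and 60.04, 58.96 and 53.3 FPKM with *Xbp1* siRNA, with the groups far apart in the other direction. The log2 difference was 0.75 (SE 0.06, adjusted p = 7.46e-05), and 13271 rows had a lower one. The 2 genes changed their order, with *Ergic2* above *Ergic1* in all 3 control libraries and below it in all 3 silenced ones. *Ergic3*, another relative, belongs to the wider pathway list and was named after its values were seen. It had 104 ± 6.87 and 150.4 ± 4.53 FPKM (SD, n = 3), which is a log2 fold change of 0.53 (SE 0.05, adjusted p = 2.05e-04).

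Of the receptors in this group, *Surf4*, which recruits soluble secreted proteins into COPII vesicles, had 80.5, 79.9 and 78.1 FPKM with control siRNA and 57.3, 59.2 and 58.5 FPKM with *Xbp1* siRNA, which gave a log2 fold change of −0.45 (SE 0.03, adjusted p = 5.59e-05). The silenced libraries lay close together and well below the controls. In the same RefSeq table *Surf4* overlaps its neighbours *Surf2* and *Stkld1*, with the same limit. *Surf2* rose from 72.1 ± 2.38 to 85.2 ± 1.12 FPKM (SD, n = 3), opposite to *Surf4*, and *Stkld1* was near 1 FPKM in both groups. *Lman2* (VIP36), a lectin of the early secretory pathway, had 181, 175 and 177 FPKM with control siRNA and 239, 221 and 225 FPKM with *Xbp1* siRNA, and the log2 fold change was 0.36 (SE 0.04, adjusted p = 2.62e-04), without overlap.

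*Lman1* (ERGIC-53) and *Mcfd2* form a cargo receptor complex for clotting factors V and VIII, and their transcripts moved in opposite directions. *Mcfd2* fell from 78.1 ± 0.764 to 59.6 ± 2.93 FPKM (SD, n = 3), which is a log2 fold change of −0.39 (SE 0.04, adjusted p = 3.45e-04). *Lman1* rose from 62.4 ± 1.74 to 69.5 ± 3.51 FPKM (SD, n = 3), which is a log2 fold change of 0.15 (SE 0.05, adjusted p = 0.0346), and this smaller change missed the threshold under 5 of the 15 alternatives. *Mcfd2* was above *Lman1* in the control libraries and below it in the silenced ones.

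The tethers and the SNARE gave 1 gene that rose and 2 that did not pass, while all 3 rose at equal summed FPKM. Of all rows, 20.2% rose as deposited and 31.7% at equal summed FPKM. *Gosr2*, a Golgi SNARE and the member with the highest level, had 303, 302 and 312 FPKM with control siRNA and 361, 359 and 361 FPKM with *Xbp1* siRNA, which gave a log2 fold change of 0.24 (SE 0.03, adjusted p = 4.11e-04). The silenced libraries lay close together and well above the controls. *Golga2* (GM130), a cis-Golgi tether, had 11.01 ± 0.504 and 12.5 ± 0.481 FPKM (SD, n = 3) with no overlap, and its log2 fold change of 0.19 missed the threshold (adjusted p = 0.0567). *Uso1* (p115), which binds GM130, had a log2 fold change of 0.07 (95% interval −0.03 to 0.18).

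**Figure D4:**
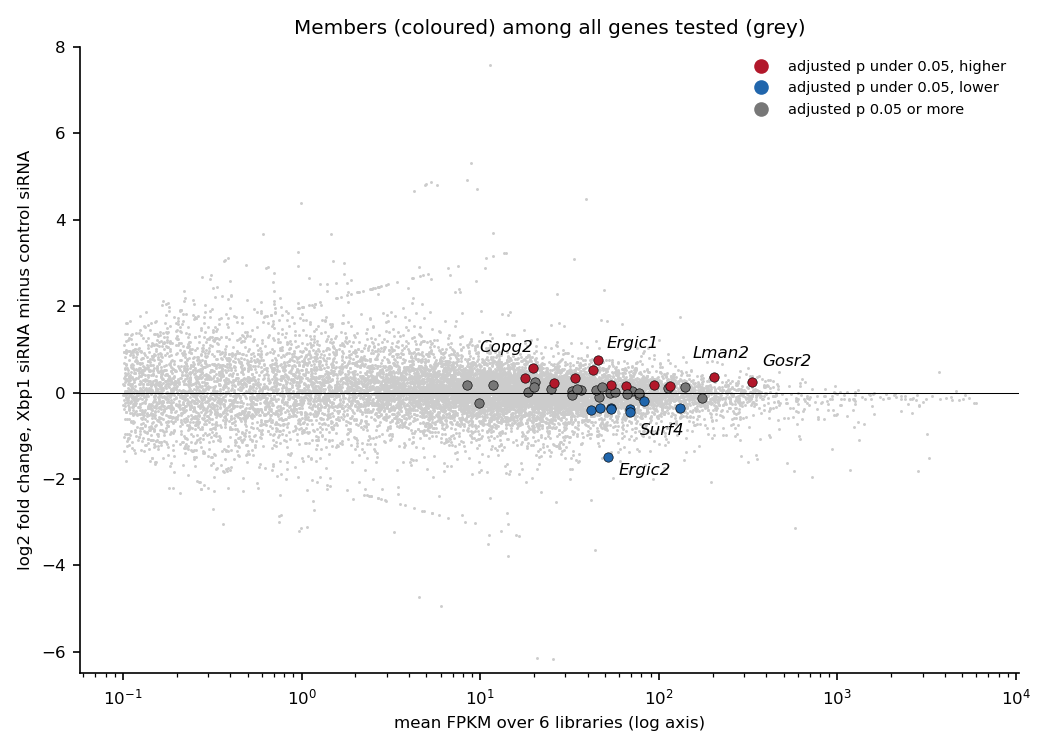
Log2 fold change on the log2(FPKM + 0.1) scale against mean FPKM over the 6 libraries (log axis) for all 14361 rows tested (grey) and the 44 transport genes among them (coloured by direction where the adjusted p was under 0.05). Most members lie close to 0 among well expressed genes, with a median size of 0.18 on the log2 scale, and *Ergic2* and *Ergic1* lie farthest from it.

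By role, the summed FPKM of the silenced libraries was 92.6% of control for the Sar1 genes with *Preb*, 104% for the inner and 92.0% for the outer COPII group, 101% for the COPI coat, 94.3% for the ARF group, 105% for the 6 p24 members (97.1% with the 4 other p24 genes), 98.5% for the other receptors and ERGIC proteins and 117% for the tethers with *Gosr2*. The sum over all members was between 2839 and 2859 FPKM in the control libraries and between 2871 and 2903 FPKM in the silenced ones, which is 101% of control. At equal summed FPKM the total was 111% of control, and each role was above 100%, from 101% for the outer COPII group to 128% for the tethers with *Gosr2*. The member total thus differed little as deposited, while single members ranged from 35.9% to 169% of control.

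The members that did not pass had log2 fold changes from −0.24 to 0.25, and the ends of their 95% intervals ran from −0.43 to 0.45, so changes beyond these bounds lie outside every interval. For 12 of these 23 members the groups did not overlap. The matching share among all rows that did not pass was not counted, so the 12 cannot be weighed against it. Over all rows tested, passed or not, 26.1% were higher and 25.8% lower without overlap. Of the 44 members, 29 (65.9%) had an unadjusted p under 0.05, as did 48.9% of all rows tested.

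Other genes for transport between the ER and the Golgi were put on a wider list. Of 90 genes with a row, 87 were tested, of which 22 rose, 19 fell and 46 did not pass. These shares, 25.3% and 21.8%, stand beside 20.2% and 20.2% of all rows. Their median log2 fold change was 0.02. At equal summed FPKM 37 (42.5%) rose and 8 (9.20%) fell, with a median of 0.15, beside 31.7% and 13% of all rows under that scaling. The limits on both size and p were met by 0 in the higher direction and by 1, *Atf6*, in the lower. *Atf6*, a transcription factor of the unfolded protein response that travels to the Golgi in COPII vesicles to be cleaved, had 91.3, 92.7 and 91.95 FPKM with control siRNA and 41.2, 44.6 and 44.7 FPKM with *Xbp1* siRNA, and the log2 fold change was −1.08 (SE 0.04, adjusted p = 3.87e-06), which no longer reached 1 in size at equal summed FPKM. The silenced libraries lay far below the controls. *Tmed4*, a p24 protein outside the member list, had 80.1, 83.8 and 80.6 FPKM with control siRNA and 42.6, 41.4 and 43.2 FPKM with *Xbp1* siRNA, which gave a log2 fold change of −0.94 (SE 0.04, adjusted p = 4.16e-06). *Scfd2*, a Sec1-type SNARE regulator, fell from 6.93 ± 0.253 to 3.90 ± 0.369 FPKM (SD, n = 3), which is a log2 fold change of −0.82 (SE 0.10, adjusted p = 6.01e-04).

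The largest rises of the wider list were those of *Use1*, *Sec22c* and *Arl1*. *Use1*, a SNARE of the ER that takes part in the fusion of COPI vesicles, rose from 10.3 ± 1.23 to 18.3 ± 2.81 FPKM (SD, n = 3), which is a log2 fold change of 0.82 (SE 0.13, adjusted p = 0.00171). *Sec22c*, a Sec22 relative, rose from 7.14 ± 0.56 to 11.3 ± 0.257 FPKM, or 0.66 (SE 0.08, adjusted p = 5.13e-04) on the log2 scale. *Arl1*, a Golgi GTPase of the ARF family, rose from 56.6 ± 3.28 to 84.8 ± 0.711 FPKM, or 0.58 (SE 0.05, adjusted p = 7.35e-05) on the log2 scale. For all 3 genes the lowest silenced library was above the highest control. Of the 33 other tether genes tested, 11 (33.3%) rose, 3 (9.09%) fell and 19 did not pass, beside 20.2% and 20.2% of all rows, with a median log2 fold change of 0.06. At equal summed FPKM 18 (54.5%) rose and 1 (3.03%) fell, with a median of 0.20. Of the 16 other SNARE genes and regulators, 4 (25%) rose, 4 (25%) fell and 8 did not pass, against 6 (37.5%) that rose and 4 (25%) that fell at equal summed FPKM. For all rows the shares were 20.2% and 20.2% as deposited, and 31.7% and 13% at equal summed FPKM.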

How the data were processed

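RNA of CHO-T cells transfected with negative control siRNA (n = 3) or *Xbp1* siRNA (n = 3) was extracted with a miRNeasy kit and made into TruSeq stranded mRNA libraries. The authors deposited 1 table of FPKM values per library, with 27873 rows named by gene symbol. The submitters' processing notes name HISAT2 2.1.0 and Cuffdiff 2.2.1. The genome build, the annotation and the treatment of strand and of multiply mapped reads are not given in the sources used here, so no coordinates are printed. FPKM values are not counts, so no count model was used, and raw counts and read totals were not used here.

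The test was that of limma 3.58.1 (R 4.3.3, lmFit, eBayes with trend), applied to log2(FPKM + 0.1) over the 14361 rows with a mean of at least 0.1 FPKM, with Benjamini-Hochberg adjustment over these rows. Rose and fell are used at an adjusted p under 0.05, and the study's limits add a log2 fold change of at least 1 in size. The script was tested on simulated data. Paralogue shares and sums were compared with an exact two-sided permutation test over libraries. Summaries were made in Python 3.11.15 (pandas 2.3.3, numpy 2.4.6, scipy 1.17.1). Relative depth was taken as the most common ratio between libraries among genes with low values.

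All 45 members are named. Values of each library are given for members past the study's limits, for the 2 members with the smallest adjusted p in each direction of a role group, among those with an adjusted p under 0.05, and for the paralogue families. Of the wider list, those past the limits and the 3 with the largest change in each direction are named, with exceptions stated. The members and lists were chosen with earlier results of these data known. The fit was repeated with pseudocounts of 0.01 and 1, without the filter or with a stricter one (mean FPKM of 1), with quantile normalization, median-ratio scaling, eBayes without trend, the replicate number as a block and leaving out each library, and scaling to equal summed FPKM was added after the data were seen. Promoter and protein sequences were not used here.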

Additional observations from a re-analysis of the deposited data

How the results depend on the processing

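Of the 21 members that passed, 18 kept their direction and an adjusted p under 0.05 in all 15 alternatives and 0 turned. *Tmed7*, *Lman1* and *Sec13* missed the threshold in some, 12 values in all. Of the 23 members that did not pass, 17 did so in some alternative with the sign of the main fit. *Copb2* also passed, with its sign turned, at equal summed FPKM (log2 fold change 0.13, adjusted p = 0.0269 in limma). With limma and 3 libraries a group, members near the threshold (*Sec23a*, *Sar1b*, *Tmed9*, *Golga2*) depended on the setting. The cause was not tested where a value changed.

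At equal summed FPKM, where the libraries are multiplied by unequal factors, the members' median was 0.19 with 28 rises, the wider list had 37 rises, 8 falls, 0 genes past the lower limit and a median of 0.15, and the rises were 2 for Sar1 with *Preb*, 4 and 2 for the inner and outer COPII groups (with 1 fall in the outer), 5 for the COPI coat, 3 for the ARF group, 5 for the p24 proteins and 3 for the tethers. Quantile normalization gave a members' median of 0.11, 5 rises among p24 proteins, 1 in the ARF group and 1 for Sar1 with *Preb*, 1 fall in the inner COPII group, and share changes of −3.21 points for *Sec24c*, −6.85 for *Copg1* and 6.85 for *Copg2*. The filter at a mean FPKM of 1 gave 1 rise for Sar1 with *Preb*, 2 among the tethers, 1 fall among p24 proteins and 1 in the inner COPII group, and this fall was also seen with a pseudocount of 0.01 and median-ratio scaling. Leaving out each library in turn gave 0 to 1 rises for Sar1 with *Preb* (1 without control replicate 2 or *Xbp1* replicate 1), 0 to 1 falls in the inner COPII group (1 without control replicate 1) and among p24 proteins (1 without control replicate 3), and medians of −0.013 (without *Xbp1* replicate 3) to 0.023 for the wider list.

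The groups share replicate numbers, but samples of 1 number did not deviate together (correlations of −0.029, −0.027 and −0.012), so the numbers were not taken as pairs. With the replicate number as a block, 13 members rose and 10 fell, with 1 rise for Sar1 with *Preb* and 1 fall in the inner COPII group.

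Signs turned only for members that did not pass. At equal summed FPKM the log2 fold change was 0.11 for *Sec24c*, 0.038 for *Copa*, 0.13 for *Copb2*, 0.13 for *Cope*, 0.078 for *Arf3*, 0.081 for *Kdelr1* and 0.014 for *Tmed9*. With quantile normalization it was 0.038 for *Sec24c*, 0.045 for *Copb2*, 0.061 for *Cope*, 0.0029 for *Arf3* and 0.00087 for *Tmed9*. With each library left out in turn, it lay between −0.0013 (without control replicate 3) and 0.036 for *Sec16a*, between −0.023 (without control replicate 1, and −0.016 without *Xbp1* replicate 1) and 0.025 for *Copg1*, between −0.036 and 0.040 for *Cope* (0.026 without control replicate 1 and 0.040 without *Xbp1* replicate 2) and between −0.013 (without control replicate 3, and −0.0086 without *Xbp1* replicate 1) and 0.062 for *Arf5*.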
